A study of Tamarix ramosissima and Tamarix chinensis with 11 samples.

Results

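In leaf RNA of *Tamarix* (saltcedar), 31 of 117867 assembled genes had a higher level in every *T. chinensis* library than in any *T. ramosissima* library, under water deficit and in well-watered controls alike. They were chosen on their CPM, the count of a gene per 1000000 fragments counted in its library. A gene was taken when its lowest CPM over the 5 *T. chinensis* libraries was at least 1 and at least 2 times its highest CPM over the 6 *T. ramosissima* libraries. Of the 21542 genes with a lowest *T. chinensis* CPM of at least 1, these 31 were 0.144%. The reverse rule, with the species exchanged, was met by 18 genes. The choice used the species contrast, so the species levels below are a description of the genes and carry no test.

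Seedlings of *T. chinensis*, grown from seed of an established stand in New Mexico, and of *T. ramosissima*, from a stand in Montana, were 14 weeks old when they entered growth chambers at 25 °C. Plants under water deficit got no more water and were sampled when their leaves went limp, while controls were watered from below throughout. Plants were harvested at wilting, on day 10 without water for *T. chinensis* and on day 17 for *T. ramosissima*, and each library came from 1 plant. There were 3 libraries of *T. chinensis* under water deficit, 2 of its control, 3 of *T. ramosissima* under water deficit and 3 of its control. Species, stand of origin and day of harvest differ together and cannot be told apart. The authors determined species identity with DNA fragment markers in individuals grown from this seed, and it was not checked here from the libraries.

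Each library held between 10245008 and 15655257 fragments (a fragment is 1 sequenced read pair), so that 1 CPM stood for 10.2 to 15.7 fragments. Every pair of libraries of 1 group differed beyond sampling noise, and the TMM factors, which correct for differences in RNA composition, lay between 0.803 and 1.13.

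*Tamarix* are shrubs and small trees of dry and saline river margins, known for tolerance of drought and salt. Plants of related species often differ in the basal level of stress-related transcripts, and such a difference between unstressed plants is called constitutive. A constitutive difference in a leaf can lie in the level of RNA per cell or in the makeup of the leaf, and in bulk leaf RNA fewer cells of a type and less RNA per cell cannot be told apart. A transcript can also differ between species because the species carry different copies or alleles of the gene. Where reads of several species are assembled together without a genome, such versions may end up as separate assembled genes, each counted on its own. Trinity, the assembler used by the authors, numbers its genes within components. Genes of 1 component may share stretches of assembled sequence, which was not checked here.

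The deposited tables give identifiers of assembled genes and no gene names, so neither the function of these genes nor their place in a pathway is given here, and no list of drought genes or leaf cell markers could be drawn up. Only a few identifiers are printed. The other genes are referred to by their rank in mean TPM (transcripts per 1000000 transcripts, the authors' level with gene length taken into account) over the *T. chinensis* libraries, from 1 to 31.

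Most of the 31 genes were lowly expressed, also in *T. chinensis*. Their mean CPM over the 5 *T. chinensis* libraries lay between 1.36 and 80.2 with a median of 3.85, against a median of 17.6 for all genes with a lowest *T. chinensis* CPM of at least 1. On the TPM scale, which takes length into account, the median was 3.96 TPM against 16.6 TPM, and 28 of the 31 lay below that median of all such genes. By mean *T. chinensis* CPM, 5 genes lay between 1 and 2, 15 between 2 and 5, 6 between 5 and 10 and 5 above 10. In *T. ramosissima* the mean lay between 0 and 4.37 CPM with a median of 0.310, and 20 genes averaged under 0.5 CPM.

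These levels correspond to few fragments, mainly on the *T. ramosissima* side. The lowest *T. chinensis* library held between 13 and 651 fragments of a gene (median 25), and for 17 of the 31 it held under 30. The highest *T. ramosissima* library held between 0 and 71 fragments (median 10). The 5 *T. chinensis* libraries together held 16446 fragments of the 31 genes, against 1506 in the 6 *T. ramosissima* libraries. The counts at this depth therefore carry a large counting error in *T. ramosissima*, and a count of 0 there means not detected at this depth.

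The gap between the species was narrow for most of the genes when read at its closest point. The ratio of the lowest *T. chinensis* to the highest *T. ramosissima* library had a median of 2.53 over the 30 genes with fragments in *T. ramosissima*, and it lay between 2 and 2.5 for 15 genes and above 5 for 2. The ratio of the species means was wider. It lay between 3.86 and 72.7 with a median of 10.8, and it reached 10 in 16 of these 30 genes. The genes just inside and just outside the threshold were close. The gene just inside had a ratio just above 2, from 14 fragments in its lowest *T. chinensis* library and 7 in its highest *T. ramosissima* library, the gene just outside had 1.99 from 16 and 9 fragments, and 35 genes with a lowest *T. chinensis* CPM of at least 1 had ratios between 1.5 and 2.

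**Figure D1:**
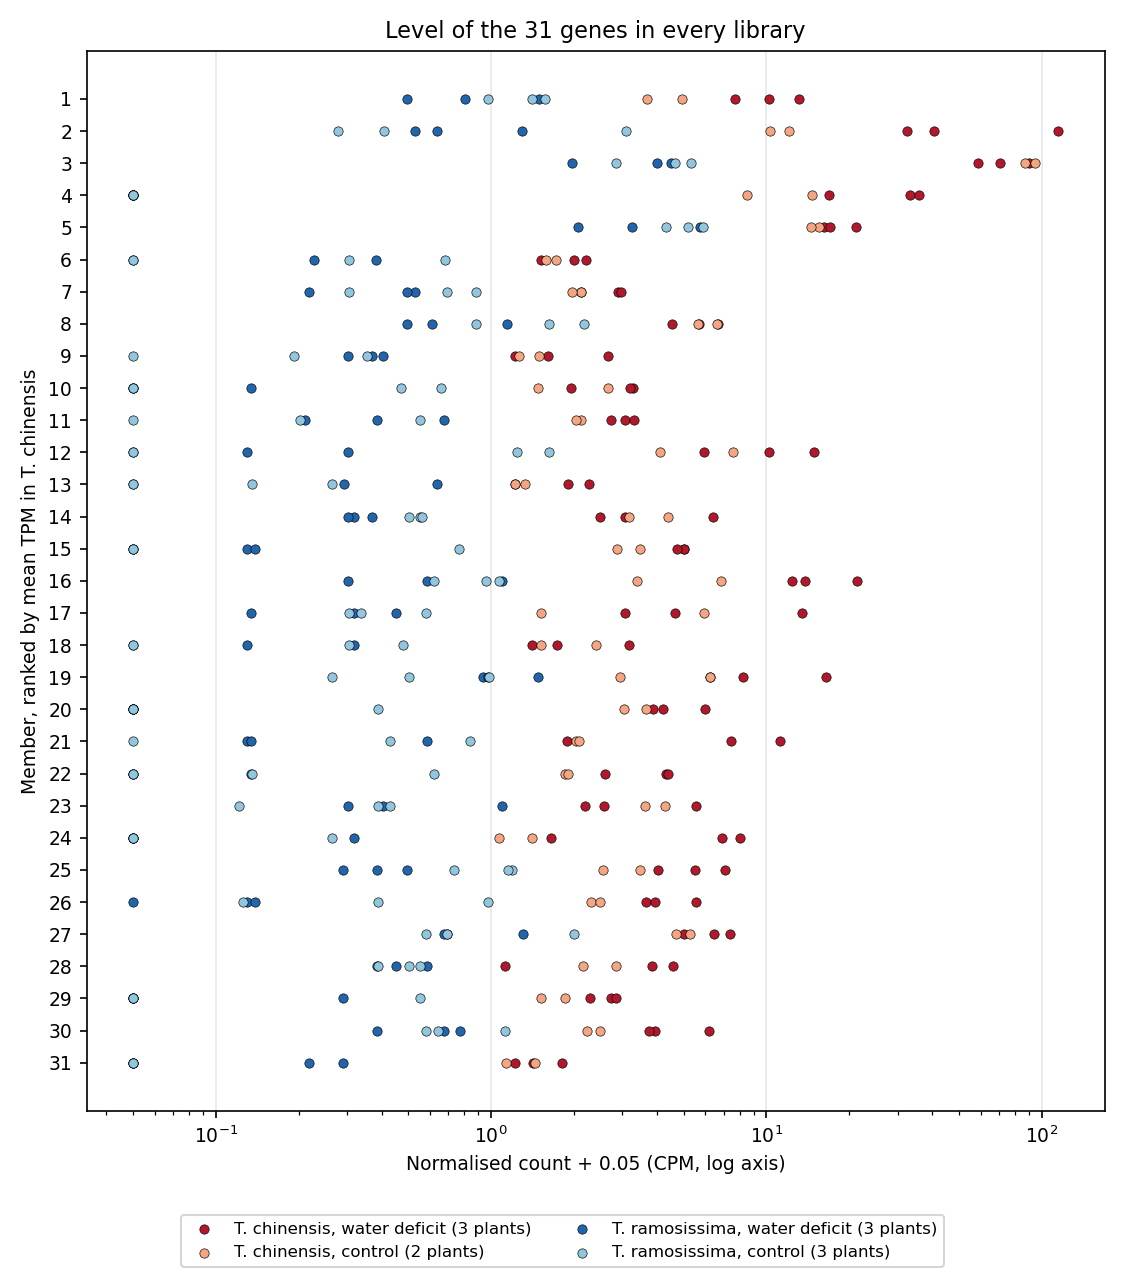
Level of each of the 31 genes (rows, ranked by mean TPM in *T. chinensis*) in each of the 11 libraries, as CPM + 0.05 on a log axis. Each point is 1 plant, and the points at the left edge are libraries with 0 fragments. The *T. chinensis* points lie right of all *T. ramosissima* points in every row, as the rule requires, and 16 of the 31 genes have at least 1 *T. ramosissima* library at 0.

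The gene of highest CPM was TRINITY_DN37827_c0_g1 (rank 3). It had 70.8, 90.0 and 58.8 CPM in the *T. chinensis* water deficit libraries and 86.8 and 94.7 CPM in the *T. chinensis* controls. In *T. ramosissima* it had 1.92, 4.46 and 3.94 CPM under water deficit and 2.78, 5.26 and 4.62 CPM in the controls. All *T. chinensis* libraries were high and all *T. ramosissima* libraries low, with a mean ratio of 20.9 in CPM, and the treatments overlapped within each species. In CPM its lowest *T. chinensis* library was 11.2 times its highest *T. ramosissima* library. This was the widest such gap in CPM among the 30 genes with fragments in both species. In TPM the gap was much narrower. The TPM means were 22.3 in *T. chinensis* and 3.65 in *T. ramosissima*. The lowest *T. chinensis* library had 20.02 TPM and the highest *T. ramosissima* library 7.86 TPM, so the gene would still meet the rule on TPM.

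A single gene, TRINITY_DN33681_c1_g5 (rank 4), had 0 fragments in every *T. ramosissima* library. It had 33.2, 16.8 and 35.9 CPM in the *T. chinensis* water deficit libraries and 14.6 and 8.44 CPM in the *T. chinensis* controls. Set against a floor of 3 fragments over all *T. ramosissima* libraries (0.0402 CPM), its *T. chinensis* mean was at least 542-fold higher. The bound covers counting error only.

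In the other genes *T. ramosissima* fragments were few, but seldom wholly missing. The transcript was found in all 6 *T. ramosissima* libraries for 15 of the 31 genes, was at 0 in 1 or 2 libraries for 8, in 3 or 4 for 6, and in 5 for 1. The last was rank 20, which had 61, 50 and 46 fragments in *T. chinensis* water deficit libraries and 40 and 47 in *T. chinensis* controls, against 4 fragments in 1 *T. ramosissima* control and 0 in the other *T. ramosissima* libraries. At the other end stood rank 5, the gene with the highest *T. ramosissima* level. It had 16.1, 17.0 and 21.1 CPM in *T. chinensis* water deficit libraries and 15.4 and 14.5 CPM in *T. chinensis* controls, against 5.69, 3.21 and 2.01 CPM in *T. ramosissima* water deficit libraries and 4.28, 5.85 and 5.15 CPM in *T. ramosissima* controls. Its mean ratio of 3.86 in CPM was the smallest of the 30. In TPM its means were 13.7 and 6.29. Its lowest *T. chinensis* library had 10.3 TPM and its highest *T. ramosissima* library 8.41 TPM, so it would not meet the rule on TPM. Together with the gene of highest CPM it gave 611 of the 1506 *T. ramosissima* fragments.

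The genes do not share an unusual length. The length that a count and its TPM imply, relative to the median gene of the same library, lay between 0.129 and 3.32 in *T. chinensis* with a median of 1.06. All genes with a lowest *T. chinensis* CPM of at least 1 had a median of 1.01. In *T. ramosissima* only 5 of the genes had enough fragments for this length, which lay between 0.192 and 1.15 with a median of 0.583.

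The component of each gene gives a view that the rule did not use. The 31 genes came from 31 separate components. In 9 of them the gene stood alone, and in 22 (71.0%, against 66.1% of all genes with a lowest *T. chinensis* CPM of at least 1) the component held other genes, 82 in total, of which 21 averaged at least 1 CPM over all libraries. No component held a gene with the reverse pattern, but only 18 of all 117867 genes had that pattern. A count of 0 here therefore says little. The other genes of the 22 components, summed, had a ratio of *T. chinensis* to *T. ramosissima* means between 0.203 and 4.55 with a median of 1.52, and were lower in *T. chinensis* in 8. For all genes with a lowest *T. chinensis* CPM of at least 1, taken singly, the median ratio was 1.02. The 2 medians are not alike, since the other genes were summed and most averaged under 1 CPM.

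When the counts of a component were summed, the difference between species shrank for many of the 22. The component ratio lay between 0.809 and 27.0 with a median of 2.83. It was at least 2 in 13 components, under 1.5 in 4 and under 1 in 2 of those 4. These sums include the member itself, which was chosen for its species gap. The sum still met the rule in 6 of the 22. The member took a median of 54.2% of its component's fragments in *T. chinensis* and 13.9% in *T. ramosissima*.

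The gene not detected in *T. ramosissima* is the plainest case of this kind. Its component of 5 genes averaged 144 CPM in *T. chinensis* and 127 CPM in *T. ramosissima*, a ratio of 1.13. The gene itself took 15.2% of the component in *T. chinensis* and none in *T. ramosissima*, while the component's leading gene averaged 96.8 ± 17.7 CPM in *T. chinensis* (SD, n = 5) and 99.5 ± 32.7 CPM in *T. ramosissima* (SD, n = 6). Rank 20 was similar, with a component of 26.1 CPM in *T. chinensis* and 26.3 CPM in *T. ramosissima*. TRINITY_DN37827_c0_g1 made up nearly all of its component, with 99.0% of it in *T. chinensis* and 88.5% in *T. ramosissima*, and the other genes of that component summed to 0.786 CPM in *T. chinensis* and 0.496 CPM in *T. ramosissima*. Whether the genes of a component are versions of 1 gene was not tested.

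**Figure D2:**
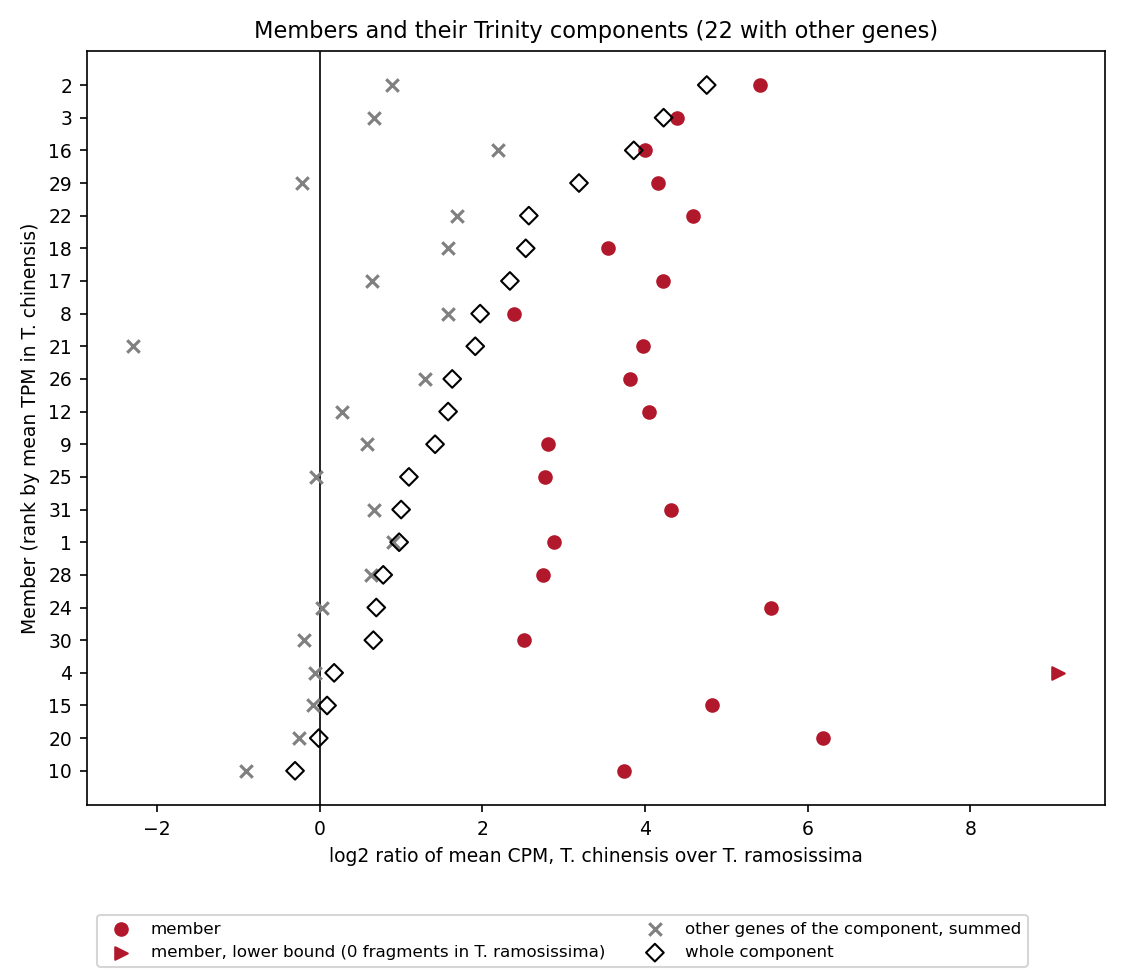
The log2 ratio of mean CPM, *T. chinensis* over *T. ramosissima*, for the 22 genes whose component held other genes (rows, labelled by rank in TPM and ordered from the highest to the lowest component ratio). Filled circles are the members, the triangle is the lower bound for the member with 0 fragments in *T. ramosissima*, crosses are the other genes of the component summed and diamonds the whole component, with the vertical line at equal levels. The components of ranks 20 and 10, in the bottom rows, lie below a ratio of 1.

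Fragments shared out by RSEM between similar contigs leave counts that are not whole. Such counts (off by more than 0.005) occurred in 5 of the 31 genes, against 24.8% of all genes with a lowest *T. chinensis* CPM of at least 1. TRINITY_DN33681_c1_g5 was among the 5, with such a count in all 5 *T. chinensis* libraries.

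The treatments were then set against each other within a species, to see how far the higher *T. chinensis* level was independent of water supply. Summed over the 31 genes, the level was 286, 290 and 378 CPM in the *T. chinensis* water deficit libraries and 207 and 207 CPM in its controls. In *T. ramosissima* it was 18.2, 17.7 and 14.4 CPM under water deficit and 23.2, 27.6 and 19.5 CPM in the controls. In *T. chinensis* the 3 plants under water deficit exceeded both controls, and in *T. ramosissima* the 3 plants under water deficit lay below all 3 controls. The difference of means was 0.62 on the log2 scale in *T. chinensis* and −0.48 in *T. ramosissima*, and no p is given for a sum over chosen genes.

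The sum leaned on a few genes, since 3 of them gave 8687 of the 16446 *T. chinensis* fragments. Without the 3 genes of highest CPM it was 150, 143 and 168 CPM in *T. chinensis* water deficit libraries and 95.5 and 91.5 CPM in *T. chinensis* controls. In *T. ramosissima* it was then 15.8, 12.0 and 9.90 CPM under water deficit and 20.04, 19.3 and 14.6 CPM in the controls. The *T. chinensis* groups stayed apart, and the *T. ramosissima* groups then overlapped.

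**Figure D3:**
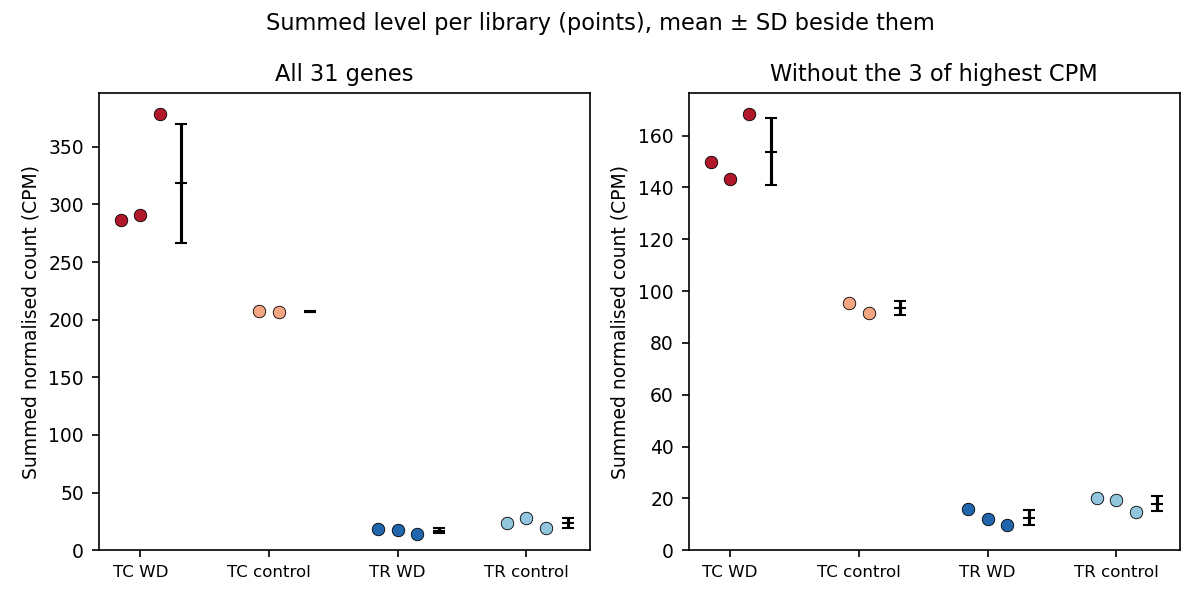
Summed CPM of the 31 genes (left) and of the 28 without the 3 of highest CPM (right) in each library, with TC for *T. chinensis*, TR for *T. ramosissima* and WD for water deficit. Points are plants and bars beside them the mean ± SD (n = 3, but n = 2 in the *T. chinensis* control). *T. chinensis* averaged 318 ± 51.9 CPM under water deficit and 207 ± 0.377 CPM in controls, *T. ramosissima* 16.8 ± 2.06 CPM and 23.4 ± 4.10 CPM.

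Gene by gene, 2 of the 31 rose under water deficit in *T. chinensis* and none fell (edgeR's quasi-likelihood test over all genes, Benjamini-Hochberg adjusted p up to 0.05, with a log2 fold change of 1 or more in size). Over all 28210 genes tested, 6.1% rose and 9.48% fell, so the number that rose was near the background. By the same tool 9 of the 31 (29.0%) had an unadjusted p under 0.05, all with a higher level under water deficit, which was a smaller share than the 36.8% of all genes tested. By DESeq2 5 rose (9.28% of all genes tested rose and 11.3% fell) and by edgeR's exact test 5 rose (8.97% rose and 12.5% fell), and by neither did any of the 31 fall. With no filter on low counts the quasi-likelihood test called 7 as higher and none as lower, where 3.28% of 101222 genes rose and 4.31% fell. The unfiltered shares, here and below, include many genes with very few fragments, which can hardly be called. They are therefore no like background for the 31. At the study's stricter adjusted p of 0.005 none was called, where 0.0567% of all genes rose and 0.291% fell.

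The rule names no treatment, but it used these same *T. chinensis* values, so the shares below are a description. A floor on the lowest library may not act alike on water deficit and control plants, which was not tested. All genes tested needed a CPM above 1 in only 2 libraries, while the 31 had at least 1 in all 5. The log2 fold change was above 0 in 28 of the 31 genes, against 50.7% of all genes tested, and was at least 1 in 9 genes (29.0%, against 14.0% of all) and at most −1 in none (16.3% of all). The median was 0.58 over the 31 and 0.02 over all genes tested, and the range was −0.29 to 2.52. In 15 genes all 3 water deficit libraries lay above both controls, which 25.6% of all genes tested did, and in none did all lie below (29.4% of all). The highest of the 5 *T. chinensis* libraries was a water deficit library in 30 of the 31 genes, against 58.7% of all genes with a lowest *T. chinensis* CPM of at least 1. Water deficit plant 3 was highest in 15 of them, against 14.1% of all such genes, and control plant 2, the most deeply sequenced library, was lowest in 15, against 25.7%. The median log2 fold change was 0.66 without water deficit plant 3 and 0.55 without control plant 2.

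TRINITY_DN25141_c0_g2 (rank 2) was the called gene with the larger response. It had 32.4, 40.6 and 115 CPM in *T. chinensis* water deficit libraries and 10.3 and 12.1 CPM in *T. chinensis* controls. In *T. ramosissima* it had 0.481, 1.25 and 0.587 CPM under water deficit and 0.357, 3.05 and 0.227 CPM in the controls. The *T. chinensis* groups did not overlap, although plant 3 stood far above the other water deficit plants, and the *T. ramosissima* groups overlapped. The log2 fold change was 2.52 ± 0.65 (SE) in *T. chinensis*, with an adjusted p of 0.0473 by edgeR's quasi-likelihood test, and −0.53 ± 0.97 (SE) in *T. ramosissima*, with an adjusted p of 0.815.

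TRINITY_DN27409_c0_g1 (rank 1) had the highest TPM of the 31, with 34.6 ± 16.9 TPM over the *T. chinensis* libraries (SD, n = 5) and 4.50 ± 1.85 TPM over the *T. ramosissima* libraries (SD, n = 6). It had 13.1, 7.64 and 10.2 CPM in *T. chinensis* water deficit libraries and 4.88 and 3.64 CPM in *T. chinensis* controls. It had 1.44, 0.446 and 0.755 CPM in *T. ramosissima* water deficit libraries and 0.928, 1.53 and 1.36 CPM in *T. ramosissima* controls. The *T. chinensis* groups did not overlap and the *T. ramosissima* groups did. The log2 fold change was 1.31 ± 0.34 (SE) in *T. chinensis* (edgeR adjusted p = 0.0492) and −0.52 ± 0.53 (SE) in *T. ramosissima* (edgeR adjusted p = 0.634). It took only 6.91% of its component in *T. chinensis*. The component's leading gene averaged 106 ± 33.4 CPM in *T. chinensis* (SD, n = 5) and 56.5 ± 15.4 CPM in *T. ramosissima* (SD, n = 6), and had a log2 fold change of 0.92 ± 0.17 (SE) under water deficit in *T. chinensis* (edgeR adjusted p = 0.0215, under the fold minimum) and −0.03 ± 0.27 in *T. ramosissima*.

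Both calls lay close to the threshold. In a single fit of all 4 groups both were lost, with adjusted p of 0.0656 for TRINITY_DN25141_c0_g2 and 0.0571 for TRINITY_DN27409_c0_g1 by edgeR. Without *T. chinensis* control plant 1 the log2 fold change was 2.35 for TRINITY_DN25141_c0_g2 and 1.46 for TRINITY_DN27409_c0_g1. Without control plant 2 it was 2.67 and 1.13. Each of these fits had 1 control library left, so a lost call there says little about the gene. The highest adjusted p given below come from them. For TRINITY_DN27409_c0_g1 the adjusted p by edgeR was 0.103 without water deficit plant 1 and 0.101 without water deficit plant 3. Over 13 alternatives the adjusted p ranged from 1.36e-15 to 0.248 for TRINITY_DN25141_c0_g2 and from 0.00856 to 0.289 for TRINITY_DN27409_c0_g1.

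Other genes had changes of the same order that did not pass the test. TRINITY_DN33681_c1_g5 had a log2 fold change of 1.36 ± 0.43 (SE) in *T. chinensis*, with an edgeR adjusted p of 0.0788, and all 3 of its water deficit libraries lay above both controls. Rank 16 had 13.8, 12.3 and 21.3 CPM under water deficit in *T. chinensis* and 3.34 and 6.77 CPM in the controls, a log2 fold change of 1.65 ± 0.45 (SE) with an edgeR adjusted p of 0.0546. Rank 24 had 6.83, 1.60 and 7.95 CPM under water deficit in *T. chinensis* and 1.35 and 1.02 CPM in the controls, a log2 fold change of 2.24 ± 0.77 (SE) with an edgeR adjusted p of 0.0939, and plant 2 lay near the controls. The gene of highest CPM was one of the 3 with a value below 0, at −0.29 ± 0.20 (SE) with an edgeR adjusted p of 0.342, and its groups overlapped.

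**Figure D4:**
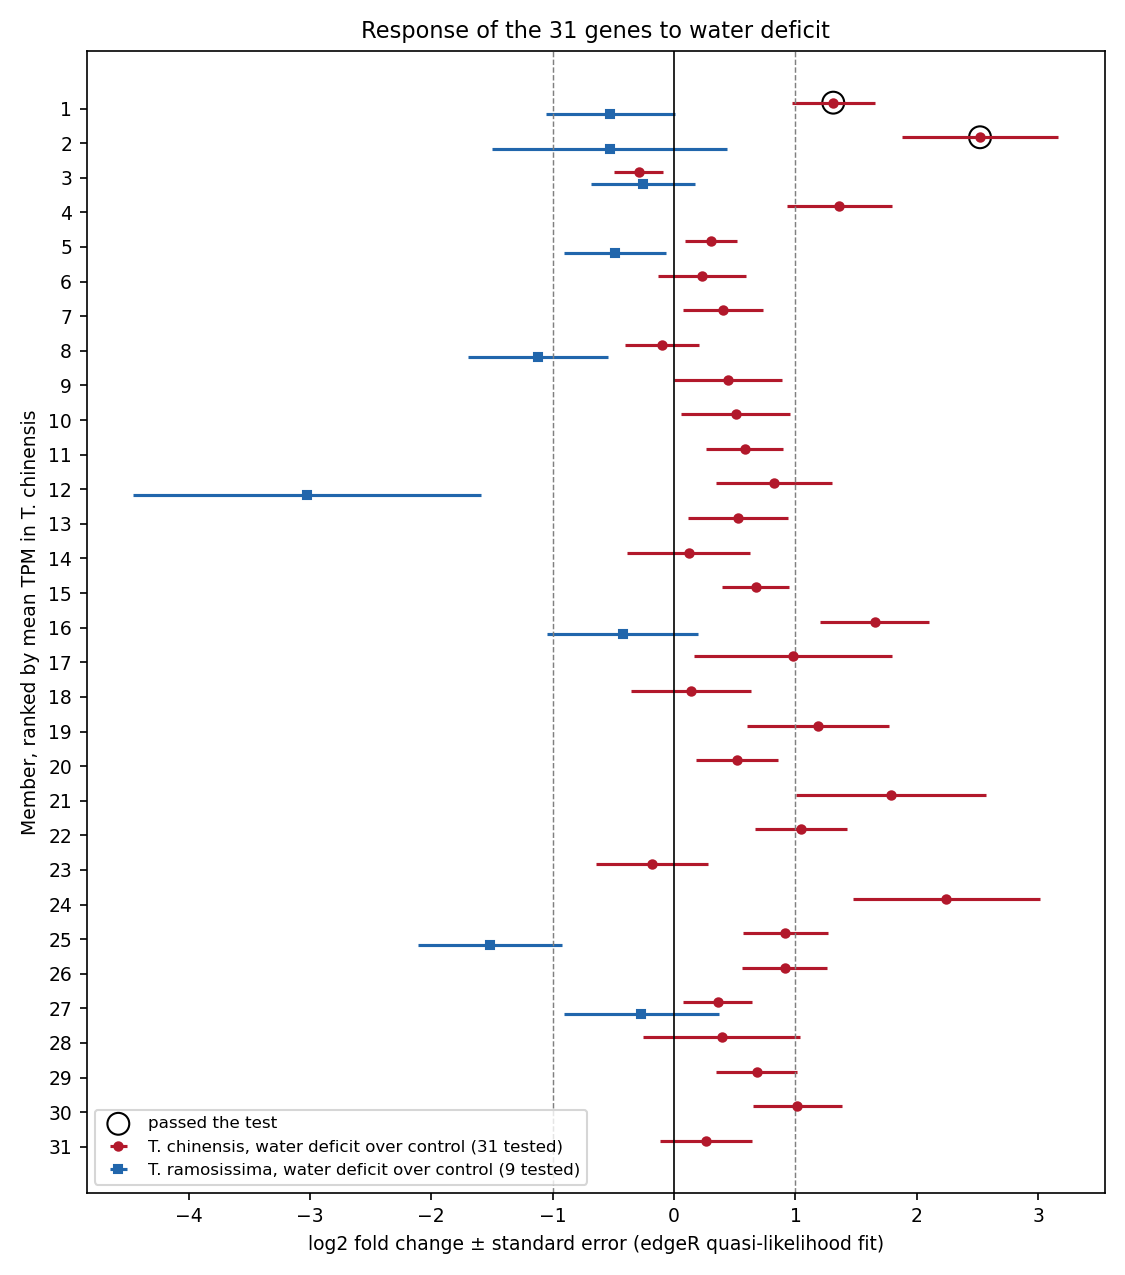
Response to water deficit of the 31 genes (rows, ranked by mean TPM in *T. chinensis*), as the log2 fold change of water deficit over control ± SE from edgeR. Circles are *T. chinensis* (31 tested) and squares *T. ramosissima* (9 tested), rings mark the 2 that passed the test, and dashed lines stand at −1 and 1. In *T. chinensis* 28 of 31 values lie above 0. The *T. ramosissima* values run from −3.03 to −0.25, and the 2 lowest belong to genes that passed the filter on low counts only through the controls.

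In *T. ramosissima* 9 of the 31 genes were expressed enough to be tested, and 2 of these, ranks 12 and 25, passed the filter only through the controls, where they were high. None rose and none fell by edgeR's quasi-likelihood test, where 1.54% of the 29025 genes tested rose and 2.29% fell, and 1 (11.1%) had an unadjusted p under 0.05, against 21.6% of all genes tested. None was called by DESeq2 (3.91% of all genes tested rose and 5.4% fell) or edgeR's exact test (3.61% rose and 5.09% fell). With no filter on low counts 1 of 30 fell and none rose, where 1.84% of all genes rose and 1.83% fell, and at an adjusted p of 0.005 no gene of the whole table was called. The log2 fold changes of the 9 lay between −3.03 and −0.25. The 2 lowest were those of ranks 12 and 25, whose sign the filter fixed, and no count or median over the 9 is read. In 2 of the 31 genes all water deficit libraries lay below all controls (15.1% of all genes tested), and in none did all lie above (12.4%). Of the 30 genes with fragments in *T. ramosissima*, the highest library was a control in 21, which was so for 43.2% of all genes with a lowest *T. chinensis* CPM of at least 1. Control plant 1 alone was highest in 10 of the 30, against 11.2% of all such genes. With such low counts this is a description, since 22 of the 31 genes had under 50 fragments over all *T. ramosissima* libraries.

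The value at −3.03 belonged to rank 12, which shows how thin these counts were. It had 10.2, 14.9 and 5.87 CPM in *T. chinensis* water deficit libraries and 4.06 and 7.54 CPM in *T. chinensis* controls. In *T. ramosissima* it had 1, 0 and 3 fragments under water deficit and 22, 14 and 0 fragments in the controls. The groups overlapped in both species, and the edgeR adjusted p in *T. ramosissima* was 0.274.

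The difference between the responses, that of *T. chinensis* minus that of *T. ramosissima*, was tested as the interaction of species and treatment over all 4 groups. No gene of the 31 passed this test in either direction by edgeR's quasi-likelihood test (of 31320 genes tested, 0.00958% had a higher and 0.0543% a lower response in *T. chinensis*), and 9 of the 31 (29.0%) had an unadjusted p under 0.05, against 11.6% of all genes tested. Of these 9 the difference was above 0 in 8, and below 0 in rank 31 (−3.56, unadjusted p = 0.0335 by edgeR), which had 0 fragments in all *T. ramosissima* controls. By DESeq2 1 passed with a higher response in *T. chinensis* (0.923% of all genes were higher and 1.9% lower). With no filter on low counts 3 passed, all higher. Of the 116686 genes in that fit, many with very few fragments, 0.566% were higher and 0.971% lower. At an adjusted p of 0.005 none of the 31 passed, and of all genes 0.00639% did, all with a lower response in *T. chinensis*. As a description, the difference had a median of 1.34 on the log2 scale among the 28 genes with fragments in both *T. ramosissima* groups. It was above 0 in 24, at least 1 in 18 and at most −1 in 1. Of all 31320 genes tested, 51.7% were above 0, 12.6% at least 1 and 12.5% at most −1. Of the 31 genes, 22 entered this fit only through their *T. chinensis* level, so the *T. ramosissima* side of these values rests on very few fragments. With the 2 genes that had 0 fragments in 1 *T. ramosissima* group set at their bound, the median was 1.19 over 30 genes, and the gene at 0 in all of *T. ramosissima* allows no estimate. Written as ratios, the same values carry the same limit. Over these 28 genes the mean *T. chinensis* level stood a median of 15.1 times above *T. ramosissima* under water deficit and 6.98 times above it in controls. The ratio was wider under water deficit in 23 of them. The rule required low *T. ramosissima* levels, so these ratios rest on few fragments and no response is read from them.

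TRINITY_DN29270_c3_g2 (rank 25) was singled out after its values were seen. It was the only one of the 31 in which the groups of both species did not overlap and moved in opposite directions. It had 5.47, 7.03 and 3.98 CPM in *T. chinensis* water deficit libraries and 3.43 and 2.49 CPM in *T. chinensis* controls, against 0.240, 0.446 and 0.336 CPM in *T. ramosissima* water deficit libraries and 1.14, 1.10 and 0.681 CPM in *T. ramosissima* controls. The *T. chinensis* water deficit plants all lay above their controls and the *T. ramosissima* ones all below theirs. Taken singly, 25.6% of all genes tested did the first and 15.1% the second. The share of all genes that did both was not counted, so the 1 gene is a description. The *T. ramosissima* values were 3, 5 and 4 fragments under water deficit and 16, 13 and 9 in the controls. The log2 fold change was 0.92 ± 0.35 (SE) in *T. chinensis* and −1.52 ± 0.60 (SE) in *T. ramosissima*, with edgeR adjusted p of 0.119 and 0.196. In *T. ramosissima* the gene passed the filter on low counts only through the controls. The filter thus fixed the sign of that fold change, and nothing is read from its p.

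Averaged over both species, none of the 31 genes passed the test for water deficit by edgeR's quasi-likelihood test, where 5.83% of the 31320 genes tested rose and 8.45% fell, and 2 (6.45%) had an unadjusted p under 0.05, against 36.1% of all genes tested. DESeq2 called 2 as higher under water deficit (7.38% of all genes rose and 9.68% fell) and the quasi-likelihood test with no filter also called 2 (2.59% rose and 3.36% fell). At an adjusted p of 0.005 none was called, where 1.57% of all genes rose and 2.61% fell.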

How the data were processed

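Leaf RNA of 11 seedlings was sequenced as read pairs. The authors checked reads with FastQC 0.11.3, trimmed them with Prinseq 0.20.4, assembled the reads of both species into 1 reference with Trinity 2.4.0, and aligned each library with bowtie (version 2) inside RSEM (version not given in the sources used here). They deposited RSEM's expected counts per assembled gene, which are not normalized, and RSEM's TPM. No genome was used. All columns were assigned to a library by name.

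Here, CPM was computed from the deposited expected counts and the column sums. Counts rounded to whole numbers were tested in R 4.3.3 with edgeR 4.0.16 (TMM factors, quasi-likelihood test, two-sided, Benjamini-Hochberg adjustment over all genes tested) after leaving out genes that did not exceed a CPM of 1 in 2 or more libraries of a comparison. Fits within a species used that species only, and the interaction and the average used all groups. Genes were called at an adjusted p up to 0.05 with a log2 fold change of 1 or more in size. The study's adjusted p of 0.005 was an alternative, since the quasi-likelihood test makes few calls at it here. SE was derived from the fold change and the F statistic. Alternatives were DESeq2 1.42.0, edgeR's exact test, other size factors, no filter, a replicate block, and leaving out each library. The p-values measure the spread between single plants. The script was tested on simulated counts.

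The rule for named genes took the gene of highest *T. chinensis* CPM, the highest one with 0 fragments in all *T. ramosissima* libraries, and up to 2 called genes per direction whose groups do not overlap. The members and rules were chosen with earlier results of these data known. Gene functions and sequences are not analysed here. Floors cover counting error only.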

Additional observations from a re-analysis of the deposited data

Results flagged for a closer look

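TRINITY_DN29270_c3_g2 drew attention because its plants moved in opposite directions in the 2 species without overlap: all *T. chinensis* water deficit plants lay above their controls, and all *T. ramosissima* water deficit plants lay below theirs. The *T. chinensis* response minus the *T. ramosissima* response was 2.48 ± 0.62 (SE) on the log2 scale, with an adjusted p of 0.150 by edgeR's quasi-likelihood test of the interaction and 0.0342 by DESeq2 (0.0342 to 0.551 over 17 alternatives). The gene was picked for this pattern after its values were seen, so these p-values are no independent test of it. How many of all genes share the pattern was not counted. The *T. ramosissima* side rests on 12 fragments in all under water deficit and 38 in the controls, and the part of counting error in the difference was not tested.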

How the results depend on the processing

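The rule of choice was sensitive to its own settings. It took 5 genes at a ratio of 4, 66 at a ratio of 1.5, 4 at a lowest CPM of 5 and 57 with TPM in place of CPM (24 of them among the 31). Leaving out 1 library gave between 35 and 62 genes, the highest numbers without *T. chinensis* control 2 (62) and *T. ramosissima* control 1 (57). With TMM scaling it took 26 genes, of which 22 were among the 31. With Trinity clusters in place of components, the sum met the rule for 6 genes instead of 15, and 9 of those 15 stand alone in their component, where the sum is the gene itself.

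The number that rose under water deficit in *T. chinensis* (2) was 0 at an adjusted p of 0.005, 5 by DESeq2, 5 by the exact test, 7 with no filter on low counts and 1 in 1 fit of all 4 groups, where both named calls were lost. Leaving out a water deficit library gave 1 without plant 1 or 3, and 6 without plant 2. Of all genes tested, 1160 of 27375 rose without plant 1, 2847 of 27532 without plant 2 and 1150 of 27308 without plant 3. Without either control only 1 control library was left, and no count is read from those fits. In *T. ramosissima* 1 gene fell with no filter. A higher response in *T. chinensis* was called for 1 gene by DESeq2 and 3 with no filter. It was also called for 1 without *T. ramosissima* water deficit plant 1, where 184 of all 30882 genes were higher. Without any other water deficit library or *T. ramosissima* control it was called for none. The median difference between the responses over all 31 genes was 1.38. It was 0.83 without *T. ramosissima* control 1 and 1.69 without *T. ramosissima* control 3, the extremes with a library left out. Over both species 2 genes rose by DESeq2 and 2 with no filter. Without *T. chinensis* water deficit plant 2 it was 2 (1928 of all 30999 genes rose). Without *T. ramosissima* control 2 it was also 2 (1783 of all 30750 rose). Without any other water deficit library or *T. ramosissima* control none rose. The median log2 fold change lay between 0.55 and 0.69 in *T. chinensis* and, over the 4 to 9 genes tested there, between −0.96 and −0.38 in *T. ramosissima* with a library left out, a value from which nothing is read because the filter fixed 2 of the signs. The causes were not tested. The median log2 fold change over both species was 0.10, and −0.03, −0.13 and −0.02 without *T. chinensis* control 1, control 2 and water deficit plant 3. No called gene turned its direction under the alternatives run. The call of TRINITY_DN25141_c0_g2 was lost in 4 alternatives and that of TRINITY_DN27409_c0_g1 in 7, in both cases including the fits with 1 control left. For the counts and medians, 153 values under an alternative stayed within 1.5 times the count or within the spread of the median, and 30 did not. Many of the 153 set a count of 0 against 0, so the tally is no measure of stability. The number that rose in *T. chinensis* left that range in most alternatives.

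The deviations of same-numbered libraries from their groups had correlations of 0.04 and 0.10 for *T. chinensis*, and −0.16, −0.21 and 0.09 for *T. ramosissima*. With so few plants per group these values cannot decide whether the numbers pair plants. With the replicate number as a block, 1 gene rose in *T. chinensis* (TRINITY_DN27409_c0_g1 was lost, adjusted p 0.0965 by edgeR), with a median log2 fold change of 0.63, and no gene was called in the other comparisons. Because the rule chose genes low in *T. ramosissima*, 22 of the 31 had under 50 fragments there, and a change of treatment in these was hardly detectable at this depth.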
